A study of Mus musculus with 6 samples.

Results

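The cells described here were Cd8 alpha beta T cells of mouse cranial bone marrow, the lymphocytes that carry the CD8 co-receptor and kill infected or transformed cells. They were picked out by their own transcripts: a cell was kept when it held at least 2 unique molecular identifiers (UMIs, each standing for 1 captured mRNA) of Cd3d, Cd3e and Cd3g together and at least 2 of Cd8a and Cd8b1 together, with no UMI of Cd4, Trdc or Cd79a. This rule kept 500 of 37576 cells. The marrow came from the calvarium of wild-type C57BL/6 mice, stated to be male and given no treatment, at 3 ages: 2 months (02m), 12 months (12m) and 18 months (18m). At each age the sagittal suture with the neighbouring parietal bone formed the CBMA sample (cranial bone marrow adjacent to the suture), and parietal bone away from the sutures formed the CBMD sample (cranial bone marrow distant from the suture). Tissue of 6 to 8 mice per age was pooled, digested with collagenase and dispase and profiled on the 10x Chromium 3′ platform, which gave 1 library for each age and site. A library therefore stands for a pool and has no replicate and no test between ages was run. Whether the CBMA and CBMD pools of an age held the same animals is not given in the sources used here.

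Cd8 T cells leave the thymus as naive cells, which keep Ccr7 for entry into lymph nodes and rest under the transcription factors Lef1 and Tcf7. After meeting antigen, some persist as memory cells that carry Cd44 and the interleukin-2 and interleukin-15 receptor chain Il2rb, run on Eomes and Tbx21, and hold ready-made Ccl5 mRNA. Bone marrow is known as a site where memory Cd8 T cells lodge, and in mice the naive pool is known to give way to memory-phenotype cells with age, some of which arise without foreign antigen. Prolonged stimulation can also lead to an exhausted state marked by Tox and by inhibitory receptors such as Pdcd1 and Lag3.

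The 3 rule markers were the values by which the cells were chosen and are given as a description only. Cd8b1, which encodes the beta chain that sets alpha beta Cd8 T cells apart from cells with Cd8a alone, had 784, 680.4 and 554 CPM (counts per 1000000 UMIs, summed over the Cd8 cells of a library) in CBMA at 02m, 12m and 18m, and 924, 477 and 478 CPM in CBMD. Cd8a had 495, 490.4 and 330.1 CPM in CBMA at 02m, 12m and 18m, with 489, 275 and 292 CPM in CBMD at the same ages. Of the 500 cells, 80 lay exactly on 1 of the limits, while 94 cells with enough Cd3 held 1 Cd8 UMI and 15 cells with enough Cd8 held 1 Cd3 UMI, and these 109 were left out. A further 30 cells passed both limits but were dropped for a UMI of Cd4, Trdc or Cd79a. Genes the rule did not use matched the label: Trbc2, a constant gene of the T cell receptor beta chain, was found in 79 of 85, 33 of 35 and 146 of 157 cells in CBMA at 02m, 12m and 18m and in 28 of 31, 84 of 87 and 100 of 105 cells in CBMD. Trac, the constant gene of the alpha chain, had 428, 504 and 352 CPM in CBMA at 02m, 12m and 18m, with 483, 469.9 and 318 CPM in CBMD. Runx3, the transcription factor of the Cd8 lineage, had 187, 269 and 226 CPM in CBMA at 02m, 12m and 18m, with 254, 246 and 275 CPM in CBMD. The 6 genes of the natural killer (NK) cell list summed to 24.5 to 115 CPM over the libraries, the 8 of the Cd4 lineage to 36.2 to 365, the 7 of gamma delta T cells to 0 to 41.6, the 4 of NKT cells to 18.1 to 172, the 5 of immature T cells to 5.76 to 26.5, the 7 of dendritic cells to 68.1 to 224, the 8 of monocytes to 451 to 930, the 6 of mesenchymal cells to 0 to 35.3, the 8 of B cells to 169 to 6070 and the 6 of erythroid cells to 6.04 to 6681. The highest B and erythroid sums, in CBMA_12m and CBMD_12m, came mainly from 1 cell, which held 76.9% of Igkc UMIs in the first and 55.3% of Hbb-bs UMIs in the second. Their part in the results was not tested. The NK cell receptor gene Ncr1 was at 0 in all 6 libraries, as were the Cd8-positive dendritic cell gene Xcr1 and the gamma delta T cell genes Trdv4 and Sox13.

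The Cd8 cells of a library had a median of 5159 to 7126 UMIs and 1633 to 2305 genes, and their summed UMIs ran between 165596 in CBMD_02m and 1129959 in CBMA_18m, so CBMD_02m with 31 cells and CBMA_12m with 35 gave the least precise levels. RNA of neutrophils, the most abundant cells, was present in every library: the 10 genes of the neutrophil list summed to 12443 CPM in the Cd8 cells of CBMA_02m, 3552 CPM in CBMA_12m and 3412 CPM in CBMA_18m, and to 11057, 10311 and 6241 CPM in CBMD in order of age. The 12m libraries stood apart in Xist, the X-inactivation RNA of female cells, which was found in 51.4% and 65.5% of Cd8 cells in CBMA_12m and CBMD_12m and in at most 0.637% elsewhere, although the mice are stated to be male. Gm42418, a locus that overlaps ribosomal RNA repeats, took 111586, 12286.5 and 133672 CPM in CBMA at 02m, 12m and 18m, with 58449.5, 14819.5 and 141743 CPM in CBMD. Any pair of libraries shared 6 to 21 cell barcodes among the filtered cells. Intervals given here are exact 95% intervals that cover counting error only, neither the spread between mice nor the repeat reading of molecules.

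Cd8 T cells took a larger share of all filtered marrow cells at 18m than at 02m at both sites. Their share in CBMA was 0.991% (0.792 to 1.22%) at 02m, 1.29% (0.899 to 1.79%) at 12m and 2.17% (1.85 to 2.53%) at 18m. In CBMD it was 0.390% (0.265 to 0.553%), 1.95% (1.56 to 2.40%) and 1.58% (1.30 to 1.92%) at the same ages. The ratio of shares at 18m over 02m was 2.19 (1.67 to 2.89) in CBMA and 4.07 (2.70 to 6.28) in CBMD, and at 12m over 02m it was 1.30 (0.851 to 1.95) and 5.00 (3.29 to 7.80), so the 12m interval in CBMA took in 1. Cd8 cells thus reached their highest share at 18m near the suture but at 12m away from it, although in CBMD the ratio of 18m to 12m, 0.813 (0.606 to 1.09), also took in 1. Cd4 T cells, defined by at least 2 Cd3 UMIs, a Cd4 UMI and no Cd8a, Cd8b1, Trdc or Cd79a UMI, had a ratio at 18m over 02m of 1.24 (0.815 to 1.88) in CBMA and 3.10 (1.55 to 6.63) in CBMD. The number of Cd8 cells per Cd4 cell was 1.77, 2.06 and 3.14 in CBMA, with 2.58, 1.78 and 3.39 in CBMD, in order of age. Among cells with at least 2 Cd3 UMIs and no Cd79a UMI, Cd8 cells made up 37.0%, 31.0% and 41.4% in CBMA, with 35.2%, 24.7% and 38.6% in CBMD. Measured that way the ratios at 18m over 02m came to 1.12 and 1.10, and the ratio at 12m over 02m in CBMD was 0.702, and all 3 intervals took in 1. With cells thinned to 1500 UMIs before the rule was applied, which left out shallower cells, 34, 12 and 43 Cd8 cells were found in CBMA, with 19, 16 and 25 in CBMD. The ratios at 18m over 02m were then 1.51 (0.939–2.44) in CBMA and 1.59 (0.842–3.06) in CBMD, so both intervals took in 1. The thinned cells were 75.7% of the filtered cells in CBMA_12m and 83.2% in CBMD_12m, and between 91.7% and 94.0% in the other libraries.

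**Figure D1:**
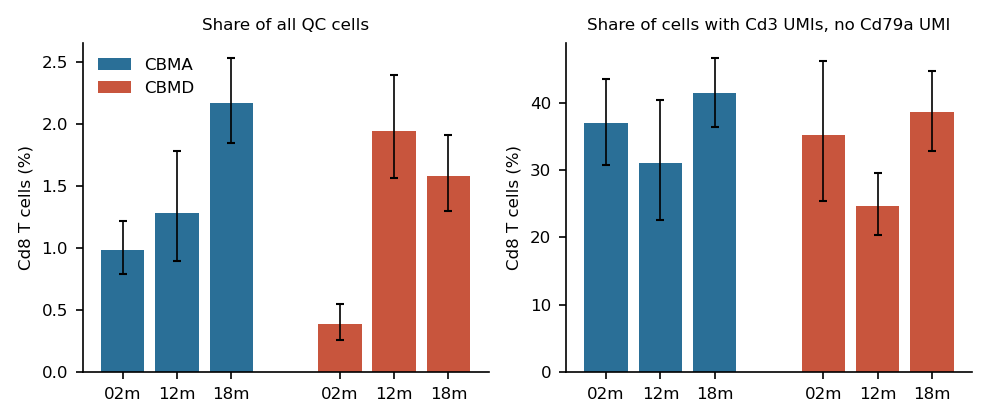
Share of Cd8 T cells (in percent, vertical axis) among all filtered cells (left) and among cells with Cd3 UMIs and no Cd79a UMI (right), for the 3 ages (horizontal axis) of CBMA and CBMD, with exact 95% binomial intervals. In the left plot the 18m bars, 2.17% and 1.58%, stand above the 02m bars, 0.991% and 0.390%, at both sites, while in the right plot the intervals of 18m and 02m overlap.

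Between 18m and 02m, more genes were at least 2-fold higher than lower in Cd8 cells at both sites. Genes were compared when they had at least 50 UMIs over the 2 libraries. In CBMA 482 of 4041 genes (11.9%) were at least 2-fold higher and 122 (3.02%) at least 2-fold lower at 18m against 02m, and in CBMD 347 of 2309 (15.0%) were higher and 110 (4.76%) lower. At 12m against 02m the counts were 204 of 1816 higher (11.2%) and 64 lower (3.52%) in CBMA, and 388 of 2233 higher (17.4%) and 121 lower (5.42%) in CBMD. These comparisons share their 02m library, so they are set side by side and not counted as support for each other. The median log2 ratio over all genes compared was 0.15 and 0.12 at 18m against 02m in CBMA and CBMD, and 0.23 and 0.09 at 12m against 02m. Under median-of-ratios scaling these medians became 0.03, 0.10, −0.11 and 0.17, and the split at 12m against 02m in CBMA turned to 97 genes higher and 116 lower, against 376 and 175 at 18m in CBMA. The minimum of 50 UMIs let in more genes that were high in the deeper library: with both sums thinned to the smaller total the counts at 18m against 02m were 250 higher and 103 lower in CBMA and 89 and 57 in CBMD.

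Of the naive genes, Dapl1, Igfbp4, Actn1 and, by less than 2-fold, Lef1 were lower at 18m than at 02m, while Il7r at both sites, Nsg2 in CBMA and Klf2 and Foxo1 in CBMD were 2-fold or more higher. Dapl1, a gene highly expressed in naive and stem-like memory Cd8 cells, had 381, 26.5 and 87.6 CPM in CBMA at 02m, 12m and 18m, with 429, 28.8 and 46.1 CPM in CBMD. It was 4.35-fold lower (3.38 to 5.62) at 18m than at 02m in CBMA and 9.30-fold lower (6.05 to 14.6) in CBMD, so both older ages lay well under 02m at each site. Igfbp4, a binding protein of insulin-like growth factors and a naive T cell marker, had 263, 44.2 and 12.4 CPM in CBMA at 02m, 12m and 18m, with 163, 28.8 and 13 CPM in CBMD, and was 21.2-fold lower (12.2 to 39.9) at 18m in CBMA. Lef1, a transcription factor of the Wnt pathway that keeps T cells naive, had 317, 110.5 and 161 CPM in CBMA at 02m, 12m and 18m, with 236, 210.4 and 147 CPM in CBMD. It was 1.97-fold lower (1.57 to 2.46) at 18m than at 02m in CBMA and 1.60-fold lower (1.08 to 2.34) in CBMD, close to the 2-fold line at the first site and short of it at the second. Ccr7, the chemokine receptor for lymph node entry, had 114, 79.5 and 104 CPM in CBMA at 02m, 12m and 18m, with 60.4, 262 and 87.9 CPM in CBMD, highest in CBMD_12m. Tcf7, shared by naive and memory cells, had 233, 340.2 and 350.5 CPM in CBMA at 02m, 12m and 18m, with 399, 271 and 285 CPM in CBMD, higher at 18m than at 02m at the first site and lower at the second. Il7r, the interleukin-7 receptor on which both naive and memory cells live, was 4.23-fold higher (3.30 to 5.51) at 18m in CBMA and 2.45-fold higher (1.78 to 3.45) in CBMD. Of the 18 genes of the naive list, 17 were compared in CBMA at 18m against 02m, with 2 higher, 3 lower and a median log2 ratio of −0.06, and 14 in CBMD, with 3 higher, 2 lower and a median of 0.44. With 12m set against 02m 2 of 13 were higher and 4 lower in CBMA, and 4 of 13 higher and 1 lower in CBMD. Near the suture, 11.9% of every gene compared at 18m was higher and 3.02% lower, with a median log2 ratio of 0.15. Away from the suture these values were 15.0%, 4.76% and 0.12. The 12m shares were 11.2% higher and 3.52% lower near the suture, with 17.4% and 5.42% away from it. With cells in the top Scrublet ranks or over 5 neutrophil UMIs removed, the log2 ratio of Lef1 at 18m against 02m was −0.44 in CBMA and −0.15 in CBMD, but this left only 23 and 8 cells at 02m.

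Of the memory genes compared, Il2rb, Eomes, Cd44 and Il18r1 stood 2-fold or more above 02m at 18m at both sites. Il2rb had 73.2, 486 and 382 CPM in CBMA at 02m, 12m and 18m, with 48.3, 279.6 and 434 CPM in CBMD, and was 5.22-fold higher (3.68 to 7.64) at 18m than at 02m in CBMA and 8.97-fold higher (4.50 to 21.0) in CBMD. Eomes, a T-box transcription factor of memory Cd8 cells, had 6.46, 212 and 141 CPM in CBMA at 02m, 12m and 18m, with 36.2, 192 and 196 CPM in CBMD, from only 3 and 6 UMIs at 02m. It was 21.8-fold higher (7.32 to 107) at 18m in CBMA and 5.41-fold higher (2.42 to 15.0) in CBMD, with the older ages close to each other in CBMD. Cd44, the hyaluronan receptor that marks antigen-experienced T cells, had 36.6, 146 and 172 CPM in CBMA at 02m, 12m and 18m. In CBMD it had 66.4, 169 and 179 CPM. Neutrophils hold far more of it. Thinned to 1000 UMIs, a Cd44 UMI was found in 2.35, 25.7 and 14.0% of Cd8 cells of CBMA at 02m, 12m and 18m. In neutrophil-lineage cells of CBMA the shares were 29.0, 39.7 and 44.6%, so these cells gave no clean background for Cd44. The part of carried-over RNA in its levels was not tested. Il18r1, a chain of the interleukin-18 receptor, was 3.57-fold higher (2.35 to 5.64) at 18m in CBMA and 4.4-fold higher (2.07 to 11.2) in CBMD. Ly6c2, whose reads may be shared with its near-identical neighbour Ly6c1, was 1.37-fold higher (1.21 to 1.56) in CBMA and 1.62-fold higher (1.29 to 2.06) in CBMD. The memory chemokine receptor Cxcr3 had 23.7, 124 and 61.1 CPM in CBMA at 02m, 12m and 18m, with 66.4, 30.3 and 66.3 CPM in CBMD, higher at 18m than at 02m in CBMA and level in CBMD. Of the 18 memory genes, 10 of 16 compared were at least 2-fold higher and none lower at 18m against 02m in CBMA, with a median log2 ratio of 1.25 against 0.15 over all genes. In CBMD 4 of 14 were higher and none lower, with a median of 0.58 against 0.12. The shares of all genes that were higher were 11.9% in CBMA and 15.0% in CBMD. At 12m against 02m the counts were 7 of 12 higher and none lower in CBMA, with a median of 1.62, and 4 of 13 higher and 1 lower in CBMD, with a median of 0.44. Leaving out cells in the top Scrublet ranks or over 5 neutrophil UMIs brought the log2 ratio of Eomes at 18m against 02m in CBMD down to 0.84 from 8 cells at 02m, and that of Il2rb to 2.04.

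**Figure D2:**
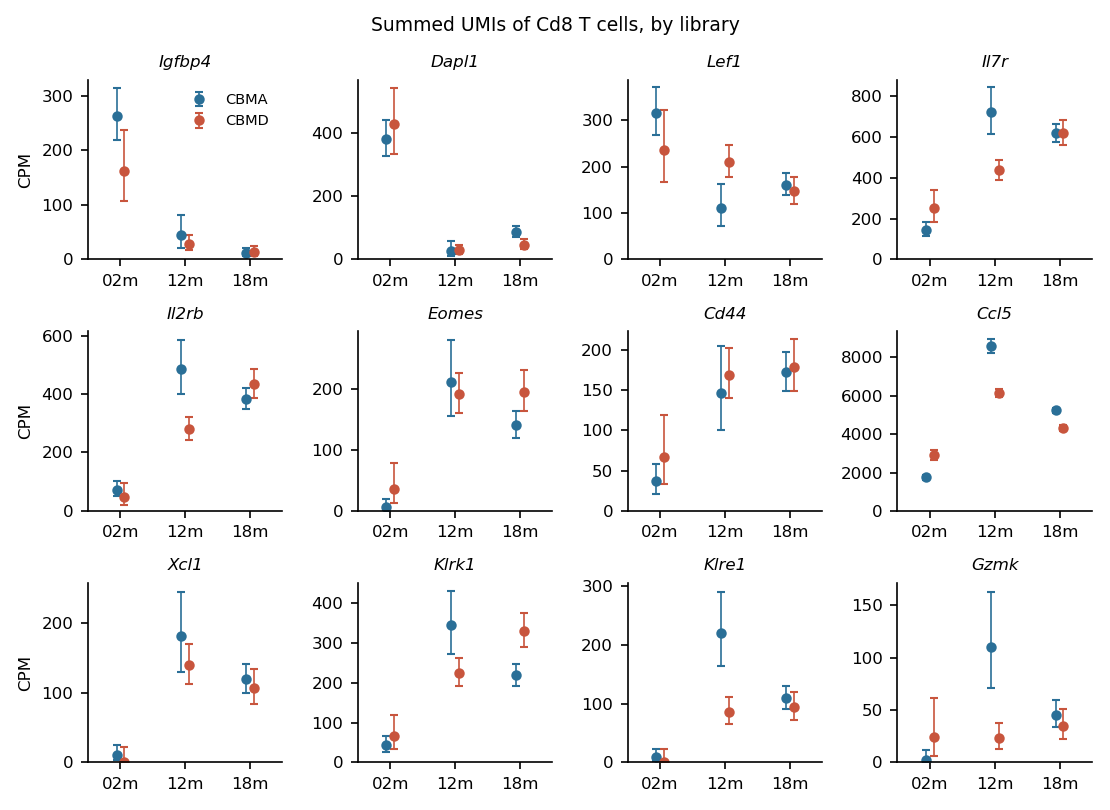
Level (CPM, vertical axes, each from 0) of 12 genes in the summed UMIs of Cd8 T cells, by age (horizontal axes) in CBMA (blue) and CBMD (red), with exact 95% Poisson intervals. The upper row holds naive genes, the middle row memory genes and Ccl5, and the lower row Xcl1, 2 Klr receptors and Gzmk; Dapl1 and Igfbp4 are highest at 02m, while Il2rb, Eomes, Xcl1 and Klrk1 are lowest there at both sites.

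To see these genes cell by cell at equal depth, each cell was thinned to 1000 UMIs, which left out none of the 500. A UMI of Ccl5 was then found in 18.8, 94.3 and 78.3% of Cd8 cells in CBMA at 02m, 12m and 18m and in 25.8, 69.0 and 88.6% in CBMD, against at most 2.45% of neutrophil-lineage cells, which should lack it and had median depths of 2696 to 3190 UMIs before thinning. For Il2rb the shares were 5.88, 40.0 and 27.4% in CBMA, with 3.23, 32.2 and 31.4% in CBMD, and for Eomes 1.18, 17.1 and 12.7% in CBMA, with 0, 14.9 and 16.2% in CBMD. The shares for Dapl1 were highest at 02m. They were 29.4, 5.71 and 8.92% in CBMA, with 16.1, 2.30 and 4.76% in CBMD. When cells were sorted by whether they held a UMI of Ccr7, Lef1, Igfbp4 or Dapl1 and a UMI of Ccl5, Il2rb or Eomes, the first set alone was found in 54.1, 5.71 and 7.64% of cells in CBMA and 41.9, 11.5 and 2.86% in CBMD. The second set alone was found in 20, 80.0 and 67.5% in CBMA, with 19.4, 49.4 and 70.5% in CBMD. Among cells with only 1 set, most held the first set at 02m and the second at 12m and 18m. Neither set was found in 22.4, 0 and 9.55% in CBMA, with 32.3, 13.8 and 3.81% in CBMD, and cells with both sets made up 3.53, 14.3 and 15.3% in CBMA, with 6.45, 25.3 and 22.9% in CBMD. The 7 genes were taken after their levels had been seen, so these shares describe the cells and add no separate evidence.

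**Figure D3:**
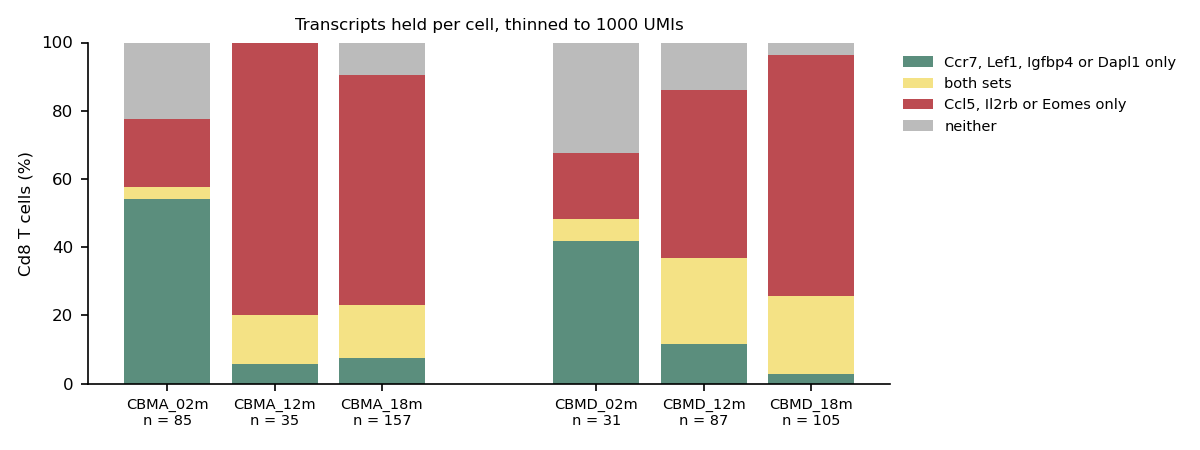
Share of Cd8 T cells (percent, vertical axis) of each library (horizontal axis, with the number of cells), after thinning to 1000 UMIs per cell. Cells held UMIs of Ccr7, Lef1, Igfbp4 or Dapl1 only (green), of both sets, of Ccl5, Il2rb or Eomes only, or of neither. The green share is 54.1% and 41.9% at 02m and between 2.86% and 11.5% at the older ages.

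Among the genes of killing and chemokine release, Ccl4, Xcl1, Ifng, Gzmm and Prf1 stood 2-fold or more above 02m at 18m at both sites, while Gzmb did not. Ccl5, a chemokine that memory Cd8 cells store as mRNA, was the most abundant, with 1742, 8593 and 5240.0 CPM in CBMA at 02m, 12m and 18m, with 2893, 6142 and 4329.5 CPM in CBMD. It was 3.01-fold higher (2.79 to 3.24) at 18m than at 02m in CBMA and 1.5-fold higher (1.36 to 1.65) in CBMD, where 38% of the 02m UMIs came from 1 cell. Ccl4, which attracts monocytes and T cells, had 43.1, 437 and 309.7 CPM in CBMA at 02m, 12m and 18m, with 103, 345 and 305 CPM in CBMD. It was 7.19-fold higher (4.59 to 11.9) in CBMA and 2.97-fold higher (1.81 to 5.20) in CBMD at 18m. Xcl1, the chemokine that draws Xcr1-positive dendritic cells, had 10.8, 181 and 119 CPM in CBMA at 02m, 12m and 18m, with 0, 139.8 and 107 CPM in CBMD. At 18m it was 11.1-fold higher (4.64 to 34.7) than at 02m in CBMA and at least 5.88-fold higher in CBMD, where no UMI was seen at 02m and a floor of 3 UMIs was used. Ifng, the effector cytokine interferon gamma, was 5.19-fold higher (2.81 to 10.6) in CBMA and 4.08-fold higher (2.02 to 9.65) in CBMD, with 23.7, 53.0 and 123 CPM in CBMA at 02m, 12m and 18m, with 48.3, 135 and 197 CPM in CBMD. Gzmm, which encodes granzyme M, had 15.1, 66.3 and 85.0 CPM in CBMA at 02m, 12m and 18m, with 0, 73.5 and 80.7 CPM in CBMD. Prf1, which encodes the pore protein perforin, had 28.0, 75.1 and 75.2 CPM in CBMA at 02m, 12m and 18m, with 24.2, 38.9 and 80.7 CPM in CBMD. Gzmb, the main apoptosis-inducing granzyme of effector cells, was not higher with age, at 81.8, 75.1 and 41.6 CPM in CBMA at 02m, 12m and 18m, with 78.5, 27.4 and 38.9 CPM in CBMD. The ratios of Gzma rested on single cells, which held 53% to 75% of its UMIs wherever it was found. Nkg7, a granule membrane protein, had 614, 1224 and 782 CPM in CBMA at 02m, 12m and 18m, with 537, 631 and 659.7 CPM in CBMD, under 1.5-fold apart between 18m and 02m. Ctsw, which encodes cathepsin W, stayed between 213 and 243 CPM in all 6 libraries. Of the 22 cytotoxic genes, 11 of 17 compared were at least 2-fold higher and none lower at 18m against 02m in CBMA, and 6 of 12 higher and 1 lower in CBMD, the exception being Tnf at 205, 63.4 and 60.5 CPM. Their median log2 ratios were 1.41 and 1.11, and the shares of all genes that were higher were 11.9% and 15.0%. With 12m set against 02m 3 of 7 were higher and none lower in CBMA and 6 of 11 higher and 1 lower in CBMD, with medians of 1.00 and 1.09. Without the cells in the top Scrublet ranks or over 5 neutrophil UMIs, the log2 ratio of Ccl5 at 18m against 02m was 0.98 in CBMA and 1.18 in CBMD, and that of Ifng in CBMA was 4.49.

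Eomes and Tbx21 are T-box factors, so the 250 bases before the annotated start of these genes were searched for the T-box letters TCACACC and their other strand GGTGTGA. The promoters of the 3 cytotoxic genes with a match are printed to show where it lies, with the match in capitals; sequences are from RefSeq, 5′ to 3′ on the strand of the gene.
Gzmk (GRCm38.p6, chr13:113180966-113181215, minus strand): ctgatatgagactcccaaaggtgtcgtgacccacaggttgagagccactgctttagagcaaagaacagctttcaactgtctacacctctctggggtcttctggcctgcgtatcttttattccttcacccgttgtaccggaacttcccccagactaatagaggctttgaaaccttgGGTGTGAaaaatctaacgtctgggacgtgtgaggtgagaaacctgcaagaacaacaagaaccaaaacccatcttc
Nkg7 (GRCm38.p6, chr7:43436888-43437137, plus strand): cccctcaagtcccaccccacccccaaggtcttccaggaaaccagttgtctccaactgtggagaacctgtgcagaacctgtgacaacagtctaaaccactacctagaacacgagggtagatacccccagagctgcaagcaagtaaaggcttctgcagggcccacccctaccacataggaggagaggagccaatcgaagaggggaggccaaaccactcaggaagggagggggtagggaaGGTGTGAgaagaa
Xcl1 (GRCm38.p6, chr1:164935523-164935772, minus strand): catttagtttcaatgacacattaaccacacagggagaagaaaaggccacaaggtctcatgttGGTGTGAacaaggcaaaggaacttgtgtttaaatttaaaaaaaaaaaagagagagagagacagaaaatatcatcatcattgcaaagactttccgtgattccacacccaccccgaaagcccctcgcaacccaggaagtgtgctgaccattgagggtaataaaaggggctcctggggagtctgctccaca
Of the 18 cytotoxic genes with a RefSeq promoter, these 3 (16.7%) held the letters, against 3.31% of 27018 promoters, and 1 of 15 memory, none of 14 naive and none of 12 NK receptor promoters did. Xcl1 and Gzmk were among the genes with wide age ratios in CBMA and Nkg7 was not. The letters in a window are a description and show no binding. The windows depend on the RefSeq start: in the GENCODE annotation Gzmk spans chr13:113171608-113225908, so its printed window lies within the gene there.

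NK cell receptors of the Klr family are lectins that read MHC class I or stress ligands. Of these, Klrk1, Klrc1, Klrc2 and Klre1 were higher in 18m than in 02m Cd8 cells at both sites, and Klrd1 in CBMD was not. Klrk1, which encodes the activating receptor NKG2D, had 43.1, 345 and 219 CPM in CBMA at 02m, 12m and 18m, with 66.4, 225 and 329.8 CPM in CBMD. It was 5.08-fold higher (3.22 to 8.46) at 18m than at 02m in CBMA and 4.97-fold higher (2.72 to 10.1) in CBMD. Klre1, a partner of other Klr receptors, had 8.61, 221 and 109.7 CPM in CBMA at 02m, 12m and 18m, with 0, 86.5 and 93.6 CPM in CBMD, with 4 UMIs and none at 02m, and was 12.7-fold higher (4.85 to 47.5) in CBMA and at least 5.17-fold higher in CBMD. Klrc2, whose reads may be shared with the near-identical Klrc1 and Klrc3, had 8.61, 177 and 112 CPM in CBMA at 02m, 12m and 18m, with 30.2, 182 and 190.1 CPM in CBMD. Klrd1, the CD94 chain that pairs with Klrc receptors, differed less, at 133, 203 and 184 CPM in CBMA at 02m, 12m and 18m, with 223, 183 and 151 CPM in CBMD, and was lower at 18m than at 02m in CBMD. In CBMA_12m 28% to 65% of the UMIs of Klre1, Klrc2 and Klra7 came from 1 cell. Klre1, Klrd1, Klrk1, Klrc2, Klrc1 and Klra7 lie together on chromosome 6 within 0.655 Mb (GRCm38, chr6:129577905-130233322). Of 15 NK receptor and adaptor genes, 6 of 9 compared were at least 2-fold higher and 1 lower at 18m against 02m in CBMA, and 5 of 8 higher and 1 lower in CBMD, with median log2 ratios of 2.08 and 1.64. Among all genes 11.9% in CBMA and 15.0% in CBMD were higher at 18m. At 12m against 02m 2 of 5 NK receptor and adaptor genes were higher and 1 lower in CBMA, and 4 of 8 higher and 1 lower in CBMD. The members that were lower, the adaptors Tyrobp in CBMA and Fcer1g in CBMD, are also neutrophil genes, and 1 cell of CBMD_02m held 89% of its Fcer1g UMIs. Removing the cells in the top Scrublet ranks or over 5 neutrophil UMIs turned Fcer1g to a log2 ratio of 3.42 in CBMA and 1.5 in CBMD at 18m against 02m, and moved Klrk1 in CBMA to 5.42. Ncr1 and Klra8, which NK cells carry, stayed at 0 in every library.

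Inhibitory receptors were hardly detected. Pdcd1 had at most 9 UMIs in any library, Lag3 at most 7, and Tigit and Havcr2 at most 5, so neither their levels nor their ratios between ages could be measured at this depth. Tox, a transcription factor of exhausted and of some memory cells, had 58.1, 155 and 85.8 CPM in CBMA at 02m, 12m and 18m, with 66.4, 89.4 and 77.8 CPM in CBMD, and was 1.48-fold higher (0.956 to 2.35) in CBMA and 1.17-fold higher (0.605 to 2.48) in CBMD at 18m, with both intervals taking in 1. The exhaustion list had 6 of 19 genes compared in CBMA at 18m against 02m, 4 of them at least 2-fold higher and none lower, and 4 in CBMD, 2 of them higher. With 12m set against 02m 2 of 2 were higher in CBMA, Nr4a2 and Tox, the last 2.66-fold higher (1.56 to 4.57), and 4 of 5 in CBMD. At 18m these were Nr4a2 and Nr4a3 at both sites and Nfatc1 and Ikzf2 in CBMA: the Nr4a genes are also induced quickly by T cell receptor signals, Nfatc1 is a factor of T cell activation, and Ikzf2 is known from regulatory T cells. At 18m, 11.9% of every gene compared near the suture and 15.0% away from it were at least 2-fold higher. The 12m shares were 11.2% and 17.4%. Few exhaustion genes reached the UMI minimum, which let in more genes that were high in the deeper library. Ikzf2 was compared in CBMA with 3 UMIs at 02m and 121 at 18m. The counts of this list are therefore a description only. Nr4a2 had 30.1, 172 and 221 CPM in CBMA at 02m, 12m and 18m, with 90.6, 343 and 323 CPM in CBMD. Ikzf2 had 6.46, 53.0 and 107 CPM in CBMA at 02m, 12m and 18m, with 0, 225 and 70.6 CPM in CBMD, with 43% of the CBMD_18m UMIs in 1 cell.

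Gzmk, which encodes granzyme K, had 2.15, 110.5 and 45.1 CPM in CBMA at 02m, 12m and 18m, with 24.2, 23.1 and 34.6 CPM in CBMD, from 1, 25 and 51 UMIs and 4, 16 and 24 UMIs. A Gzmk UMI was found in 1 of 85, 9 of 35 and 21 of 157 cells in CBMA and in 3 of 31, 8 of 87 and 13 of 105 cells in CBMD, so the older ages were higher near the suture and the ratio of levels at 18m over 02m in CBMD, 1.43-fold higher (0.492 to 5.67), had an interval that took in 1. Thinned to 1000 UMIs the shares were 0, 2.86 and 5.73% in CBMA, with 3.23, 3.45 and 2.86% in CBMD, with a share of up to 3.53% (3 counts of 85 cells) allowed by a count of 0 in CBMA_02m. The 51 cells with a Gzmk UMI at 12m and 18m were compared with the other 333, as a description of cells chosen by 1 transcript. Tox had 323 against 59.8 CPM in Gzmk-positive and other cells, a ratio of 5.4 (4.15 to 7.0), and Eomes 461 against 136 CPM, a ratio of 3.40 (2.78 to 4.14). Each library of 12m and 18m gave both ratios above 1, between 4.27 and 6.28 for Tox and between 2.48 and 5.76 for Eomes. Of all Pdcd1 UMIs at these ages 14 lay in the 51 cells and 6 in the 333, and of Lag3 14 and 5. Gzmb was also more abundant in Gzmk-positive cells, at 197 against 19.4 CPM, as was Ccl5 at 10456 against 4864 CPM. For Gzmb the ratio was between 14.9 and 29.0 in 3 libraries but 1.34 (0.338–3.93) in CBMD_18m. Klr receptors were among the genes that were lower there: Klrc2 had 59.6 against 167 CPM, Klre1 47.0 against 117 CPM and Cd69, an early activation and tissue retention gene, 348 against 708 CPM. Tcf7 at 317 against 313 CPM and Il2rb at 326 against 385 CPM had pooled ratios whose intervals took in 1. By library, Tcf7 was at 0.654 (0.446–0.931) in CBMA_18m and at 1.66 (1.12–2.40) in CBMD_18m, and Il2rb at 0.354 (0.114–0.841) in CBMD_12m. Gzmk-positive cells were no deeper than the others except in CBMD_18m, with medians of 5358 against 6517 UMIs in CBMA_12m, 5511 against 6696.5 in CBMA_18m, 6463 against 7226 in CBMD_12m and 6398 against 6293.5 in CBMD_18m.

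**Figure D4:**
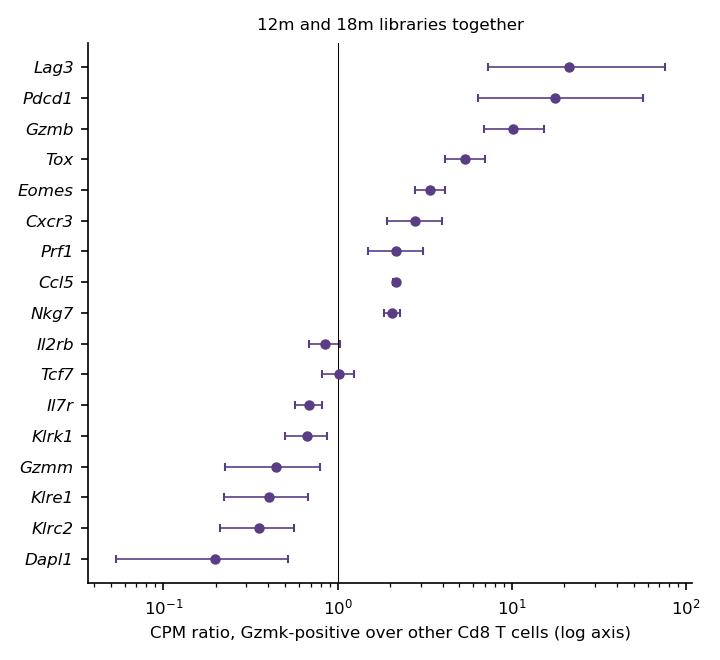
Ratio of CPM in the 51 Gzmk-positive over the 333 other Cd8 T cells of the 12m and 18m libraries (horizontal log axis) for 17 genes, with exact 95% intervals. Lag3, Pdcd1, Gzmb, Tox and Eomes lie right of 1, Il2rb and Tcf7 have intervals that take in 1, and Klre1, Klrc2 and Dapl1 lie to the left.

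Several interferon-stimulated genes were lower in the older libraries, and Ifi27l2a, Isg15 and Bst2 were lower there in neutrophil-lineage cells too. Ifi27l2a, a small interferon-induced mitochondrial protein, had 1537, 278 and 88.5 CPM in CBMA at 02m, 12m and 18m, with 2095, 259 and 64.8 CPM in CBMD. At 18m it was 17.4-fold lower (14.1 to 21.6) than at 02m in CBMA and 32.3-fold lower (23.7 to 45.1) in CBMD. In CBMD_02m 1 cell held 38.3% of its UMIs, against 12.6% in CBMA_02m. Isg15, a ubiquitin-like protein induced by interferon, had 248, 102 and 29.2 CPM in CBMA at 02m, 12m and 18m, with 284, 21.6 and 40.3 CPM in CBMD. At 18m it was 8.48-fold lower (5.71 to 12.9) in CBMA and 7.04-fold lower (4.32 to 11.7) in CBMD. The top cell of CBMD_02m held 38.3% of Isg15 UMIs, against 10.4% in CBMA_02m. Neutrophil-lineage cells held 5218, 411 and 303 CPM of Ifi27l2a and 541, 49.7 and 107 CPM of Isg15 in CBMA at the same ages, and an Ifi27l2a UMI was found in 62.4, 11.4 and 4.46% of thinned Cd8 cells against 75.2, 17.2 and 14.7% of thinned neutrophil-lineage cells. By these shares Cd8 cells did not stand out from neutrophil-lineage cells in Ifi27l2a or Isg15 at either site. Small excesses for Isg15 in CBMA_12m and Ifi27l2a in CBMD_12m were the exceptions. Neutrophil-lineage cells hold both genes themselves, so the shares cannot tell the RNA of Cd8 cells from carried-over RNA. A further estimate took Cd8 cells to have picked up RNA of all filtered cells in proportion to their S100a8 and S100a9 UMIs. By it, 650 of the 1537 CPM of Ifi27l2a and 50.7 of the 248 CPM of Isg15 in CBMA_02m would have been carried over. The estimate is given for CBMA_02m only, and the part of carried-over RNA in the difference between ages was not tested. Bst2, the virion-tethering protein tetherin, was at 200.2, 92.8 and 58.4 CPM in CBMA at 02m, 12m and 18m, with 151, 72.1 and 80.7 CPM in CBMD, against 152, 45.9 and 16.8 CPM in neutrophil-lineage cells of CBMA, and was 3.43-fold lower (2.47 to 4.77) at 18m in CBMA and 1.87-fold lower (1.12 to 3.05) in CBMD. Ly6a, the interferon-inducible Sca-1 antigen of T cells, was at 219.6, 92.8 and 54.9 CPM in CBMA at 02m, 12m and 18m, with 187, 27.4 and 70.6 CPM in CBMD, with 48% of the CBMD_02m UMIs in 1 cell, and at 14.8, 58.2 and 8.99 CPM in neutrophil-lineage cells of CBMA. Of 22 interferon genes 8 of 14 compared were at least 2-fold lower and 1 higher at 18m against 02m in CBMA, and 2 of 7 lower and none higher in CBMD, with median log2 ratios of −1.40 and −0.66. At 12m against 02m 3 of 9 were lower and 1 higher in CBMA, and 3 of 6 lower and none higher in CBMD. Of all genes, 3.02% and 4.76% were lower at 18m in CBMA and CBMD, and 3.52% and 5.42% at 12m. In cells outside the top Scrublet ranks with at most 5 neutrophil UMIs the log2 ratio of Ifi27l2a at 18m against 02m was −4.31 in CBMA and −4.34 in CBMD, and that of Isg15 −2.23 and −4.13.

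The interferon-stimulated response element, was searched as GAAA, any 2 bases and GAAA, or its other strand TTTC, any 2 bases and TTTC. It is shown for 3 interferon genes with more than 1 match, with all matches in capitals; in Isg15, 3 matches overlap.
Isg15 (GRCm38.p6, chr4:156200819-156201068, minus strand): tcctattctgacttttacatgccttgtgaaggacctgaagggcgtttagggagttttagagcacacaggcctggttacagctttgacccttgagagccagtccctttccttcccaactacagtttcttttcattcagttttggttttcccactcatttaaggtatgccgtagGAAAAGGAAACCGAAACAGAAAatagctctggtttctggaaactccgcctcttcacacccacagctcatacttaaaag
Ifit1 (GRCm38.p6, chr19:34640639-34640888, plus strand): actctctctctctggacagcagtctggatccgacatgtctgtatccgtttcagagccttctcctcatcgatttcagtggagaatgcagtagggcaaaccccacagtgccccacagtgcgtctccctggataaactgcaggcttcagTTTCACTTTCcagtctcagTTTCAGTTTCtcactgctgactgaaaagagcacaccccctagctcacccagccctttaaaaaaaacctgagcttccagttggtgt
Ifit3 (GRCm38.p6, chr19:34583279-34583528, plus strand): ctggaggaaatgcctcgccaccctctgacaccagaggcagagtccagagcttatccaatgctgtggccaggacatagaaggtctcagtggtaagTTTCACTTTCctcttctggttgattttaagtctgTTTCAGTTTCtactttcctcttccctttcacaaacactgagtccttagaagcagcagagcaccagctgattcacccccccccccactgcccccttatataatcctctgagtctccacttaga
Of the 16 interferon genes with a RefSeq promoter 9 (56.2%) held the element within 250 bases, against 3.04% of 27018 promoters. The list was drawn up from genes known to answer interferon, so this share describes the list. Ifit1, an RNA-binding antiviral protein, had 92.6, 53.0 and 5.31 CPM in CBMA at 02m, 12m and 18m, with 187, 15.9 and 4.32 CPM in CBMD. Ifit3, its partner, had 53.8, 22.1 and 7.96 CPM in CBMA at 02m, 12m and 18m, with 163, 20.2 and 7.20 CPM in CBMD. Both were lowest at 18m at each site. Bst2, Rsad2 and Slfn5 also held the element.

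Many immediate early genes, which are induced within minutes of a signal, were higher in older Cd8 cells. Of these genes 11 of 21 were at least 2-fold higher and none lower at 18m against 02m in CBMA and 12 of 21 in CBMD, with median log2 ratios of 1.07 and 1.23. With 12m set against 02m 7 of 18 were higher in CBMA and 10 of 21 in CBMD, and none was lower at either site. Of all genes, 11.9% and 15.0% were higher at 18m in CBMA and CBMD, and 11.2% and 17.4% at 12m. Nr4a1, induced by T cell receptor signals, had 94.7, 208 and 375 CPM in CBMA at 02m, 12m and 18m, with 145, 466 and 386 CPM in CBMD. Dusp1, a phosphatase that ends MAP kinase signals, had 118, 278 and 389 CPM in CBMA at 02m, 12m and 18m, with 145, 581 and 639 CPM in CBMD. Cd69 was 4.71-fold higher (3.55 to 6.36) at 18m than at 02m in CBMA and 4.88-fold higher (3.32 to 7.48) in CBMD, with 114, 680.4 and 537 CPM in CBMA at 02m, 12m and 18m, with 163, 742 and 796 CPM in CBMD. Hspa1b, an inducible heat shock protein whose reads may be shared with Hspa1a, had 8.61, 4.42 and 185 CPM in CBMA at 02m, 12m and 18m, with 0, 455 and 363 CPM in CBMD, from at most 4 UMIs in both 02m libraries and in CBMA_12m. Itgae, the integrin of epithelial resident memory cells, had at most 20 UMIs in any library. Neutrophil-lineage cells of CBMA held 134, 286 and 657 CPM of Nr4a1 and 599.6, 1016 and 2453 CPM of Dusp1 at the 3 ages, but 22.3, 30.7 and 24.8 CPM of Cd69. Such genes also answer to digestion of the tissue, whose part in the differences between libraries was not tested.

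Across the genome, the 2 sites share no library at 18m against 02m and could be set against each other as a description. Whether they shared animals is not given, so the sites are not counted as independent. Of 2298 genes compared at both sites, 307 (13.4%) were at least 2-fold higher near the suture and 343 (14.9%) in CBMD. The 183 genes higher at both made up 59.6% of the first list and 53.4% of the second. For genes at least 2-fold lower the lists held 46 (2.00%) and 109 (4.74%) genes, of which 19 were shared, 41.3% and 17.4% of each. The UMI minimum let in more genes that were high in the deeper 18m libraries. With both sums thinned to the smaller total, the genes higher at 18m fell from 482 to 250 in CBMA. In CBMD they fell from 347 to 89. The overlap was not repeated on thinned sums, so the part of depth in it was not tested. Ranked by the smaller of the 2 ratios, the highest were Hspa1b, Lpin1, Klre1, Zbtb10, Samd3, Xcl1, Yes1, C920009B18Rik and Bhlhe40. From Hspa1b to Yes1 these genes had no UMI in CBMD_02m. Lpin1, a phosphatidic acid phosphatase, had 8.61, 124 and 142 CPM in CBMA at 02m, 12m and 18m, with 0, 66.3 and 149.8 CPM in CBMD. Bhlhe40, a transcription factor of cytokine-producing and resident T cells, had 15.1, 133 and 162 CPM in CBMA at 02m, 12m and 18m, with 18.1, 195 and 156 CPM in CBMD. Tnfaip3, the NF-kappaB inhibitor A20, had 34.4, 261 and 422 CPM in CBMA at 02m, 12m and 18m, with 66.4, 918 and 423 CPM in CBMD. Gpr183, an oxysterol receptor that guides lymphocytes, was the highest in CBMA alone, with 1 UMI at 02m and 2.15, 124 and 112 CPM at the 3 ages, against 60.4, 141 and 121 CPM in CBMD. The lowest were Rn7sk, Ifi27l2a, Isg15, Wfdc21, Dapl1, Ifitm3, Ddit4, Wfdc17 and Ly6a. Rn7sk, a small nuclear RNA that holds back transcription elongation and has no poly(A) tail, had 573, 70.7 and 7.96 CPM in CBMA at 02m, 12m and 18m, with 393, 21.6 and 8.64 CPM in CBMD. Wfdc21, Wfdc17, Ifitm3, S100a8 and Retnlg are abundant in neutrophils, whose summed markers were lower in the same comparisons. In CBMA_02m the top cell for each gene held 59.8% of Wfdc21, 65.3% of Wfdc17, 65.4% of Retnlg and 14.7% of Rn7sk UMIs. In CBMD_02m it held 77.8% of Wfdc21, 72.8% of Ifitm3 and 40% of Rn7sk UMIs. Highest of all in CBMD_18m against CBMD_02m after Hspa1b was the haemoglobin gene Hbb-bs, and in CBMA_12m against CBMA_02m, after Xist, the immunoglobulin gene Igkc; both are genes of other cells, and 1 cell held 97.4% and 76.9% of their UMIs at the older age.

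**Figure D5:**
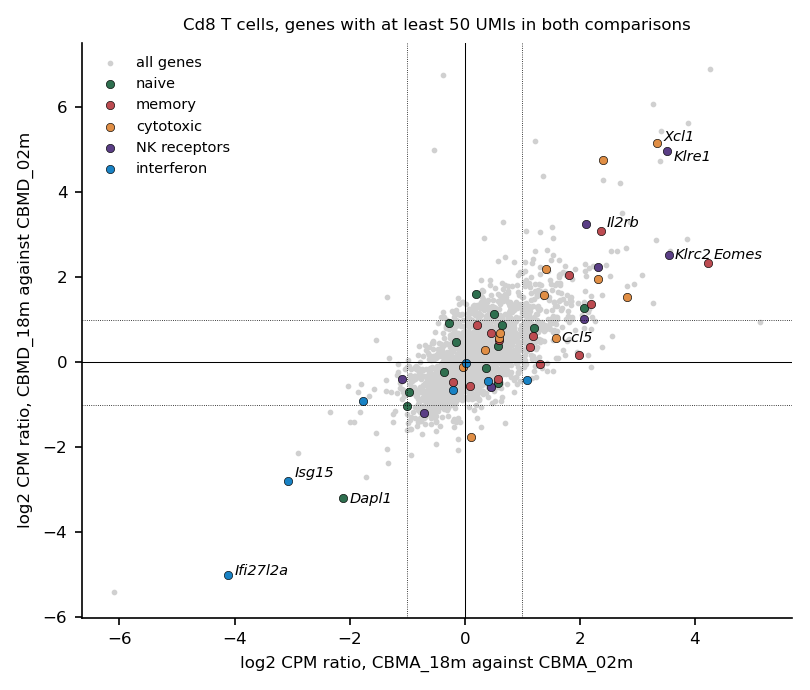
Log2 ratio of CPM at 18m against 02m in CBMA (horizontal axis) and CBMD (vertical axis) for 2298 genes with at least 50 UMIs in both comparisons; colours mark 5 gene lists and dotted lines 2-fold. Eomes, Il2rb, Klre1, Klrc2 and Xcl1 lie at the upper right, and Ifi27l2a, Isg15 and Dapl1 at the lower left.

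The memory genes were also compared between 18m and 12m. At 18m against 12m none of 17 memory genes was at least 2-fold higher and 2 were lower in CBMA, with a median log2 ratio of −0.35, and 1 of 16 was higher and 1 lower in CBMD, with a median of 0.31. The median over all genes was −0.21 and 0.08. The share of all genes at least 2-fold apart was not counted for this comparison, so the counts of memory genes stand without a background. Igfbp4 was 3.57-fold lower (1.42 to 8.63) at 18m than at 12m in CBMA and 2.22-fold lower (0.968 to 5.55) in CBMD. Ccl5 was lower at 18m than at 12m at both sites, by 1.64-fold and 1.42-fold. Age and library cannot be told apart here, and 12m cells with a Y-linked UMI and no Xist UMI numbered only 12 and 19.

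Because Cd8 and Cd4 T cells came from the same 6 libraries, they could be tested with the library as a block (edgeR quasi-likelihood test on summed UMIs, Benjamini-Hochberg adjustment over all genes tested). Besides the 6 genes of the cell rule, which are not counted here, 3734 genes were tested. At an adjusted p under 0.05 and at least 2-fold, 84 genes (2.25%) were higher and 96 (2.57%) lower in Cd8 than in Cd4 cells. Ccl5 averaged 4827 against 1180.0 CPM in Cd8 and Cd4 cells, a log2 difference of 2.16 ± 0.13 (SE) with an edgeR adjusted p of 3.3e-10, and was higher in Cd8 cells in 6 of 6 libraries. Klrd1 averaged 179.9 against 22.6 CPM, with a log2 difference of 2.97 ± 0.22, and Ccl4 257 against 36.0 CPM, with 2.89 ± 0.23, both again higher in 6 of 6 libraries. Ctsw, Klrk1, Nkg7 and Eomes were higher too, with log2 differences of 1.95 ± 0.18, 2.18 ± 0.23, 1.60 ± 0.17 and 1.53 ± 0.31. Il2rb (0.31 ± 0.21), Cd44 (−0.21 ± 0.17), Ifng (−0.09 ± 0.22) and Il18r1 (0.01 ± 0.23) did not pass, with edgeR adjusted p of 0.39, 0.49, 0.85 and 0.99, so a difference in these memory and effector genes from Cd4 cells was not shown. Of the naive list, 6 of 14 genes tested were higher in Cd8 cells and none lower, among them Satb1 at 514 against 141 CPM and Ccr7, and 4 of 16 memory, 4 of 10 cytotoxic and 2 of 4 NK receptor genes were higher with none lower. Of 7 exhaustion genes tested, 5 were lower in Cd8 cells: Ctla4 at 10.7 against 189.7 CPM, Ikzf2, Batf, Tox and Nfatc1. These genes are also carried by regulatory T cells, as are Izumo1r and Tnfrsf4, which were lower in Cd8 cells in 6 of 6 libraries. Of 10 cell cycle genes tested 6 were lower in Cd8 cells, such as Mki67 at −1.17 ± 0.26. The median log2 difference over all genes was 0.00. Neutrophil markers differed between the same cells: 2 of 8 tested, Retnlg and Mmp8, were higher in Cd8 cells, with log2 differences of 1.40 ± 0.36 and 1.52 ± 0.28, and their part in other differences was not tested. Without both 12m libraries 93 genes were higher and 101 lower.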

How the data were processed

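Single-cell RNA of pooled cranial bone marrow was sequenced in 6 libraries, 1 for each of 3 ages and 2 sites. The authors deposited a filtered matrix of UMI counts per gene and cell for each library; Cell Ranger, bcl2fastq and the GRCm38 build are named in the submitters' processing notes, and the annotation release is not given in the sources used here. Matrices were read with Python 3.11.15 (numpy 2.4.6, pandas 2.3.3, scipy 1.17.1). Cells were kept when they had 500 to 5000 genes, more than 500 UMIs and a mitochondrial share of UMIs below 25%, which left 37576 cells; the study states another number of cells after the same limits. Doublets were not removed: Scrublet, run through scanpy 1.11.5, marked 0.522% of cells by its automatic limit and 36 Cd8 cells by an expected rate of 0.8% per 1000 barcodes, and leaving those 36 out is an alternative.

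Counts were summed over the Cd8 T cells of each library and divided by their total to give CPM. With 1 library per age and site no test was run between ages; sums carry exact Poisson intervals, ratios the exact interval of 2 Poisson sums, and shares Clopper-Pearson intervals. A gene was compared when it had at least 50 UMIs over the 2 libraries, and called at a 2-fold ratio with 0.5 UMI added to each sum. A ratio against a sum of 0 was set against 3 UMIs, for each library. Cd8 and Cd4 T cells were compared on summed counts of the 6 libraries (edgeR 4.0.16 in R 4.3.3, TMM, filterByExpr, quasi-likelihood test, library as a block, calls at an adjusted p under 0.05 and 2-fold). On simulated counts for this comparison (55233 genes) the step recovered 62% of genes raised 2-fold and 68% of those lowered 2-fold. It recovered 100% of 4-fold changes in either direction. The changed genes were drawn from abundant genes only, with a fixed dispersion and no library differences other than depth. Recovery of sparse genes was not measured. Neutrophil-lineage cells had at least 20 UMIs of S100a8 and S100a9 and no Cd3 UMI. Carried-over levels were estimated as a gene's level in all cells times the ratio of S100a8 and S100a9 between Cd8 and all cells.

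The members and gene lists were chosen with earlier results of these data known, and the lists describe rather than support a direction. Genes named are list members with at least 50 UMIs in a comparison or whose 0 is the result, the 10 highest and lowest per comparison, up to 15 shared by both sites at 18m per direction, the 10 most significant of each direction against Cd4 cells, and Gzmk, Eomes and Tox; genes used by the cell rule are only described. Genes shown cell by cell or under 50 UMIs in some comparison, such as Pdcd1, Lag3, Ifit1, Ifit3 and Igfbp4 in CBMD, and Ly6a, Izumo1r and the other genes of the Gzmk comparison were named with their values in view. Alternatives changed the UMI limits of the rule, doublets and neutrophil UMIs, scaling, cell weights, the mitochondrial limit, minimum UMIs, fold, depth, 12m cells by sex-linked transcripts, DESeq2 1.42.0, the filter and each library. Promoters are from RefSeq on GRCm38.p6 and were matched by symbol for 16 of 22 interferon, 18 of 22 cytotoxic, 15 of 18 memory, 14 of 18 naive and 12 of 15 NK receptor genes. Some genes are not reported here.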

Additional observations from a re-analysis of the deposited data

Results flagged for a closer look

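Mki67, a gene of cycling cells, differed in direction between the sites. In CBMA it had 185, 30.9 and 72.6 CPM at 02m, 12m and 18m, and its log2 ratio at 18m against 02m was −1.35. In CBMD it had 42.3, 33.2 and 131 CPM, and the log2 ratio was 1.54. The UMIs came from 14, 7 and 10 cells in CBMA and from 2, 6 and 7 cells in CBMD, and the difference between the sites was not tested.

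Xist was found in 51.4% of Cd8 cells in CBMA_12m and 65.5% in CBMD_12m, against none of 85 and 31 cells at 02m and at most 0.637% at 18m. A UMI of Ddx3y, Eif2s3y, Kdm5d or Uty, which are Y-linked, was found in 15 of 35 and 25 of 87 cells of these libraries, and 3 and 6 cells held both. The part of these cells in the differences between 12m and the other ages was not tested beyond the alternative that kept 12m cells with a Y-linked UMI and no Xist UMI.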

How the results depend on the processing

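No paired analysis was possible because each age and site had 1 library, with no further replicate number; this holds between ages, while Cd8 and Cd4 cells were paired by library. Of 1651 alternative CPM ratios of single genes 1494 moved by less than their counting error, 139 moved further and 18 whose interval excluded 1 changed direction; of 203 list medians 200, 3 and 0; of 30 ratios of shares 21, 8 and 1, and 2 of the 8 crossed 1 from an interval that took in 1; of 144 shares of cells with a UMI 69 stayed within the counting interval and 75 did not. The ratio of Cd8 shares became 1.51 and 1.09 for 18m over 02m and 18m over 12m in CBMA, and 1.59 and 1.67 for 18m and 12m over 02m in CBMD, with cells thinned to 1500 UMIs. As a share of Cd3 cells the ratios were 1.12 and 0.838 for 18m and 12m over 02m in CBMA, and 1.10, 0.702 and 1.56 for 18m over 02m, 12m over 02m and 18m over 12m in CBMD.

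Leaving out cells in the top Scrublet ranks or with over 5 neutrophil-marker UMIs left 23, 0 and 86 cells in CBMA, with 8, 7 and 81 in CBMD, so CBMA_12m gave no value. It turned round the log2 ratios at 18m against 02m of Nkg7 in CBMA (−0.16), Fcer1g in CBMA (3.42) and CBMD (1.5) and Tcf7 in CBMD (0.21), and at 12m against 02m in CBMD those of Ifng (−0.59), Rgs1 (−0.59), Gpr183 (−0.21), Tyrobp (1.74) and Fcer1g (0.15), and moved the median of the immediate early genes at 18m in CBMA to 0.57. With at least 1 UMI of Cd3 and Cd8, Gzma at 18m against 02m in CBMA turned to −1.02, and the immediate early median at 18m in CBMD became 0.79. With at least 3, that median became 1.91, S100a6 turned to 0.42 at 18m and 0.19 at 12m in CBMD, Fcer1g to 1.35 and 1.89, and Tyrobp to 1.56 at 12m in CBMD. With cells weighted equally, S100a6 turned to 0.13 at 12m in CBMA and 0.17 at 18m in CBMD, and with 12m cells limited by sex-linked transcripts to 0.22 at 12m in CBMA. The causes were not tested.

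The numbers of genes higher and lower moved by construction with the minimum and the fold. For 18m and 12m against 02m in CBMA and then 18m and 12m in CBMD, a minimum of 20 UMIs gave 947 and 420, 772 and 205, 842 and 364, and 854 and 478. A minimum of 100 gave 245 and 51, 60 and 31, 164 and 52, and 187 and 32. A 1.5-fold limit gave 1025 and 442, 542 and 136, 667 and 356, and 646 and 354. With both sums thinned to the smaller total they were 250 and 103, 153 and 37, 89 and 57, and 95 and 44. Chosen after seeing the data, median-of-ratios scaling gave 97 and 116 at 12m in CBMA, where it moved the median of all genes to −0.11 and otherwise to between 0.03 and 0.17, and the 12m cells with a Y-linked and no Xist UMI gave 136 and 87 at the first site and 81 and 67 at the second.

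For Cd8 against Cd4 cells, edgeR called 314 genes higher and 302 lower among genes with at least 1 UMI, and 53 and 64 without the library block, under which Rps20 lost its call. DESeq2 called 77 and 94. Leaving out 1 library at a time gave 71 to 114 higher and 80 to 123 lower genes. CBMD_02m and CBMA_12m, with the fewest Cd8 cells, limit the precision of every ratio that uses them.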

Other observations

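Ribosomal protein genes took 26.8%, 26.3% and 21.5% of Cd8 UMIs in CBMA at 02m, 12m and 18m and 30.3%, 32.1% and 19.0% in CBMD. Of 77 such genes compared none was 2-fold apart at 18m against 02m in CBMA, with a median log2 ratio of −0.34, while 19 of 76 were lower in CBMD, with a median of −0.70. At 12m against 02m the medians were −0.01 and 0.14, with none and 1 gene higher. Of 16 MHC class I genes, which display peptides to Cd8 T cells, none was 2-fold apart in CBMA at 18m and 2 were lower in CBMD, with medians of −0.26 and −0.53, and at 12m the medians were 0.35 in CBMA and −0.28 in CBMD, where 1 was higher and 2 were lower.

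Of all genes at 18m against 02m, 11.9% and 15.0% were higher and 3.02% and 4.76% lower in CBMA and CBMD. At 12m 11.2% and 17.4% were higher and 3.52% and 5.42% lower. Of T cell receptor signalling genes at 18m, 4 of 23 were higher in CBMA and 3 of 22 in CBMD, with none lower. Their medians were 0.33 and 0.15. At 12m 6 of 21 and 3 of 22 of them were higher with none lower, and the medians were 0.64 and 0.19. Of cell cycle genes 3 of 10 were lower at 18m in CBMA, and 1 of 5 was higher and 1 lower in CBMD, with medians of −0.56 and −0.57, and at 12m 4 of 5 were lower in CBMA and none of 2 in CBMD. Effector genes of the cytoskeleton and S100 family had medians of −0.04 and −0.48 at 18m, with 1 of 11 higher in CBMA, and 1 of 10 higher and 3 lower in CBMD, and medians of −0.12 and −0.68 at 12m, with 1 higher and 2 and 3 lower. Mitochondrial genes had medians of 0.15 and 0.91 at 18m, with 1 of 12 and 5 of 11 higher and none lower, and of 0.16 and 0.64 at 12m, with 2 of 11 higher at each site and 3 lower in CBMA and 1 in CBMD. Their summed level was 37477, 21078 and 36804 CPM in CBMA at 02m, 12m and 18m, with 31692, 24386 and 42899 CPM in CBMD.

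Among all genes compared, 11.9% and 15.0% were higher at 18m against 02m in CBMA and CBMD, and 11.2% and 17.4% at 12m. Of the tissue residency genes 3 of 4 compared were higher in CBMA and 2 of 3 in CBMD at 18m against 02m, and 1 of 2 and 1 of 3 at 12m, with none lower. Of the homing genes 3 of 10 were higher in CBMA and 1 of 9 in CBMD at 18m, and 2 of 8 at both sites at 12m, where 1 was lower in CBMD. Cxcr4, the chemokine receptor that holds cells in bone marrow, had 92.6, 247 and 202 CPM in CBMA at 02m, 12m and 18m and 90.6, 316 and 232 CPM in CBMD, and was 2.18-fold higher (1.57 to 3.09) and 2.56-fold higher (1.51 to 4.68) at 18m than at 02m. T cell receptor beta variable genes had at most 31 UMIs in a library, so their use was not measurable at this depth.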
